A study of Mus musculus with 12 samples.

Results

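Splenic B cells taken 1 day after stimulation in culture were compared between cells treated to deplete Jmjd2c (the gene Kdm4c) and control cells, with 2 Affymetrix mouse arrays on each side. These 4 of the 12 arrays in the series were chosen by their titles, and 45037 probe sets were compared after the array's own 64 control sets were set aside. All cells were B220+ cells bound to magnetic beads from the spleens of C57BL/6 mice carrying Tg(IghelMD4)4Ccg, a transgene for a B cell receptor against hen egg lysozyme. Both groups were stimulated with HEL, the lysozyme antigen, and with anti-CD40 and IL21, signals that stand in for help from follicular T cells. They differed in what was given to deplete the gene: sicontrol or siJmjd2c transfection according to 1 label, shcontrol or shJmjd2c virus according to another, so which was used is not settled here. The remaining arrays hold Jmjd2a-depleted cells of day 1 and the same 3 treatments at day 3. The labels call the arrays biological replicates but do not say whether these were separate mice or separate cultures. The p-values set each difference against the spread between replicate arrays, which may not include the spread between mice. B220 is also found outside the B lineage, the receptor is fixed by the transgene in all groups, and the age and sex of the mice are not given in the sources used here.

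Kdm4c is a Jumonji-domain enzyme that removes methyl groups from lysine 9 of histone H3, a mark of silent chromatin, and Kdm4a is its close relative. A resting B cell that meets antigen with CD40 help enters the cell cycle, enlarges its ribosome and nucleotide supply, and shuts down the genes that hold it quiescent and guide it through the lymphoid organs. It may then turn into a plasma cell, which secretes antibody and gives up much of the B cell's surface machinery.

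At day 1 several gene lists were mostly higher on the Jmjd2c arrays. Past the test and higher were 16 of 21 genes of the B cell receptor and its co-receptors and 9 of 9 of MHC class II presentation. So were 15 of 21 homing receptors and 15 of 23 quiescence genes. Macrophage markers (9 of 13) and NK markers (8 of 11) rose as well. Immediate early genes outside the AP-1 list (11 of 22 higher, 4 lower) and plasma cell genes (5 of 16 higher, 1 lower) rose in part. Which cells carried these genes was not tested. Lower, by less, were 21 of 30 mitotic, 27 of 36 DNA replication, 19 of 26 ribosome biogenesis and 14 of 20 cholesterol genes. Over all genes 7.57% were called higher and 7.35% lower. The transcript of Kdm4c itself was not among the falls.

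Values are the deposited log2 levels, on which a difference of 1 is 2-fold, and each difference is the Jmjd2c mean minus the control mean ± its standard error from limma. A gene was called past the test at a Benjamini-Hochberg adjusted p below 0.05 over all probe sets, and each of 18193 genes is described by its brightest probe set unless said otherwise. Arrays are named control 1, control 2, Jmjd2c 1 and Jmjd2c 2 by their replicate number, and the fit takes its estimate of spread from all 12 arrays. Array medians of the whole series lay between 5.20 and 5.26. The 7 B cell markers analysed here had levels from 6.98 to 11.70 on the control arrays and from 7.01 to 13.09 on the Jmjd2c arrays. Correlation over all probe sets was 0.998 between the control arrays, 0.996 between the Jmjd2c arrays and 0.986 to 0.989 across the groups. The 18S ribosomal control set read 12.73 and 12.69 in controls against 12.43 and 11.73 with Jmjd2c depletion, and its part in the results was not tested.

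The transcript of the targeted gene did not read lower. Its 1 probe set read 7.78 and 7.84 on the control arrays and 8.02 and 7.98 on the Jmjd2c arrays. Both depleted arrays lay above both controls, opposite to the label, by 0.19 ± 0.12 (95% interval -0.06 to 0.45, adjusted p = 0.406). The difference was not past the test, and arrays were apart in this direction for 21.5% of all probe sets. On the linear scale the interval runs from 95.7% to 137% of the control level. Whether the protein was lower was not measured, and throughout, the Jmjd2c arrays are the arrays labelled Jmjd2c depleted. Among the other members of the family, Kdm4a differed by 0.18 ± 0.09 (adjusted p = 0.255), Kdm4b by 0.06 ± 0.10 (adjusted p = 0.835) and Kdm4d by 0.02 ± 0.14 (adjusted p = 0.97), none of them past the test.

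Of the 10 enzymes known to demethylate H3K9, 4 were past the test and higher and 0 lower. The median difference over all genes was -0.03, with 7.57% of them called higher and 7.35% lower. Kdm7a, a PHD-finger demethylase of H3K9 and H3K27, read 7.48 and 7.44 on the control arrays and 9.07 and 8.86 on the Jmjd2c arrays. The groups did not overlap, and the rise was 1.5 ± 0.17 (adjusted p = 1.91e-04). The Kdm3 family, which acts on mono- and dimethylated H3K9, rose together: Kdm3a by 0.53 ± 0.12, Kdm3b by 0.47 ± 0.08 and Jmjd1c by 0.39 ± 0.08. Kdm1a, the flavin-dependent demethylase, stood at -0.03 ± 0.05 and Phf8 at -0.01 ± 0.10. Of 12 methyltransferases and readers of the mark, 2 rose, Ehmt2 (G9a) by 0.42 ± 0.12 (not past the test with the arrays centred on their medians, adjusted p = 0.0535) and Atf7ip, a partner of SETDB1, by 0.62 ± 0.10. Trim28, the KAP1 co-repressor, differed by -0.10 ± 0.07 (adjusted p = 0.489). The call ended for Kdm3a (0.53 to 0.54) and Ehmt2 (0.33 to 0.51) without any 1 of the 4 arrays and for Jmjd1c (0.30 to 0.41) without control 1, control 2 or Jmjd2c 1 (in brackets, the difference then found). The count of H3K9 demethylases higher became 2 without control 1, control 2 or Jmjd2c 1, and that of H3K9 methyltransferases and readers higher became 4 without day 3 control 2 and 1 without any 1 of the 4 arrays. That of H3K9 methyltransferases and readers lower became 3 without day 3 control 2 and 1 without Jmjd2c 1.

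Across the array, 4961 probe sets (11.0%) were past the test, 2397 higher (5.32%) and 2564 lower (5.69%). By gene, 1377 rose and 1338 fell. The directions differed in size. Rises had a median of 0.69 and included 420 genes of at least 2-fold (2.31%), 116 of at least 4-fold and 16 of at least 16-fold. Falls had a median of -0.37, with 3 genes at 2-fold or more (0.0165%) and 0 at 4-fold. Of the genes that rose, 222 started below 5.22, the median level of all probe sets, on the control arrays, against 17 of those that fell. The share of all genes below that level was not counted. Sets near the low end of the scale have less room to fall, and the part of this in the counts was not tested. The counts depend on single arrays: 1829 sets passed without control 1, 1900 without control 2, 3296 without Jmjd2c 1 and 2450 without Jmjd2c 2, with 588, 640, 1376 and 908 of them lower. Without day 3 control 2, which stands apart and enters only the estimate of spread, 8449 passed, 3548 higher and 4901 lower.

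**Figure D1:**
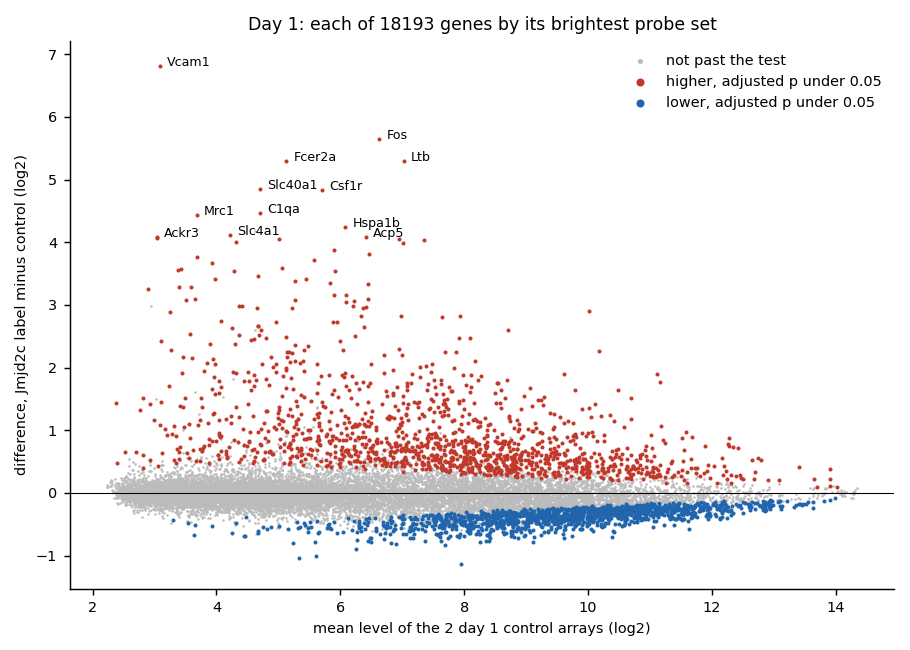
Each point is a gene, by its brightest probe set. The horizontal axis is the mean log2 level of the 2 day 1 control arrays and the vertical axis the log2 difference, Jmjd2c label minus control. Red and blue points are genes past the test. The 1377 higher genes reach a difference of 6.82 while the 1338 lower genes lie mostly between 0 and -1.

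The 12 largest rises fall into a few kinds of gene. Vcam1, the adhesion molecule that binds the integrin VLA-4 and is carried by stroma and by red pulp macrophages of the spleen, read 2.93 and 3.23 on the control arrays and 9.47 and 10.33 on the Jmjd2c arrays. The controls lay below the array's median level and the Jmjd2c arrays well above it, a difference of 6.82 ± 0.25 (adjusted p = 3.37e-08). No background level was set for these values. How far the size of the difference depends on the scale's low end was therefore not tested. That holds for dim sets such as this one and those of C1qb and Mrc1. The other Vcam1 sets rose by 3.03, from a control mean of 5.33, and by 0.93. Fos, the immediate early partner of Jun, read 6.53 and 6.73 on the control arrays and 12.07 and 12.49 on the Jmjd2c arrays, a rise of 5.65 ± 0.16. Ltb, lymphotoxin beta, which B cells present to follicular stroma, read 7.01 and 7.04 on the control arrays and 12.31 and 12.33 on the Jmjd2c arrays. The Jmjd2c arrays differed by little from each other there, and the rise was 5.29 ± 0.22. Fcer2a (CD23), the low-affinity IgE receptor of mature follicular B cells, read 5.23 and 5.02 on the control arrays and 10.50 and 10.34 on the Jmjd2c arrays, a rise of 5.29 ± 0.21.

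Genes known from splenic macrophages and red cells make up most of the rest. C1qb and C1qa, chains of the complement component C1q, rose by 5.64 ± 0.32 and 4.46 ± 0.31, from 3.67 and 3.90 to 8.77 and 10.08 for C1qb. That set is not the brightest of C1qb, and on its brightest set the rise was 3.35 ± 0.51 (adjusted p = 0.00147), or 2.18 without Jmjd2c 2. Csf1r, the receptor for macrophage colony-stimulating factor, went from 5.72 and 5.70 to 9.91 and 11.18. That was its brightest set, and its other sets rose by 2.3 and 1.4. Slc40a1, the iron exporter ferroportin, rose by 4.85 ± 0.29, Mrc1, the mannose receptor, by 4.44 ± 0.35, and Acp5, the tartrate-resistant phosphatase, by 4.09 ± 0.24. Slc4a1, the band 3 anion exchanger of the red cell membrane, rose by 4.11 ± 0.23. Its other sets differed by 3.2 and 0.06, the latter not past the test. The other set of Fcer2a rose by 3.5 and that of Slc40a1 by 4.0. On the set that put each gene among the largest rises, both Jmjd2c arrays lay above both controls, as their selection required. Over all probe sets the arrays were apart in this way for 21.5% higher and 32.4% lower. Hspa1b, an inducible Hsp70, completes the 12 with 4.93 and 4.67 on the control arrays and 10.04 and 9.03 on the Jmjd2c arrays, but its near-identical copy Hspa1a can share its probes.

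Of the 12 largest falls 10 were read on a probe set that was not the gene's brightest, as were 2 of the 12 largest rises, C1qb and Hspa1b. Kif11, the motor that separates the spindle poles, changed by -1.38 on a set reading 7.33 and 7.08 on the control arrays and 5.90 and 5.75 on the Jmjd2c arrays, but by -0.50 on its brightest set. Smc1a, a cohesin subunit, fell by 1.19 on the set that named it, and its brightest set differed by -0.12, not past the test. Srsf11 and Pnn, both of the splicing machinery, changed by -1.21 and -1.11, while their brightest sets differed by 0.12 and 0.01, not past the test. Hnrnpab, an RNA-binding protein, changed by -1.02 against -0.20 on its brightest set.

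Hells, a chromatin remodeller of replicating cells, changed by -1.07 on its dimmer set and by -0.52 on its brightest. Eprs, the glutamyl-prolyl-tRNA synthetase, changed by -1.08 and -0.32, Seh1l of the nuclear pore by -1.07 and -0.45, and Cldnd1, a claudin-domain protein, by -1.18 and -0.55. Fgl2, a fibrinogen-like protein, fell by 1.02, and its brightest set differed by -0.44, not past the test. Tbrg3 has a single set, which fell by 1.04. Gsdme, a pore-forming gasdermin, was read on its brightest set, which fell by 1.13, from 7.96 and 7.95 to 6.71 and 6.93. Both Jmjd2c arrays lay below both controls on all 12 of these sets, again as their selection required. Calls ended for Eprs (-1.01 to -0.74) without control 1 or Jmjd2c 2, for Fgl2 (-0.89 to -0.67) without control 1 or Jmjd2c 1 and for Tbrg3 (-0.95) without control 1. On the brightest sets, the call ended for Kif11 (-0.52 to -0.41) and Hnrnpab (-0.21 to -0.15) without control 1, control 2 or Jmjd2c 2, for Cldnd1 (-0.50 to -0.45) without control 2 or Jmjd2c 2 and for Eprs (-0.31) without control 2.

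The same check was made over all probe sets of at least 2-fold. Of 18 that fell so far (0.0400%), 14 belonged to 1 gene and 13 of those to a gene with several sets. In 11 of the 13 the set was not the brightest, and the brightest set of the same gene was past the test and lower in 6 and at least 2-fold lower in 0. The 11 sets had a median of -1.08 and their brightest counterparts a median of -0.37. At least 2-fold higher were 744 sets (1.65%). Of 238 sets that rose so far without being the brightest, the brightest was past the test and higher for 195 and at least 2-fold higher for 145, with medians of 1.44 and 1.24. The difference between rises and falls in this respect was not tested.

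**Figure D2:**
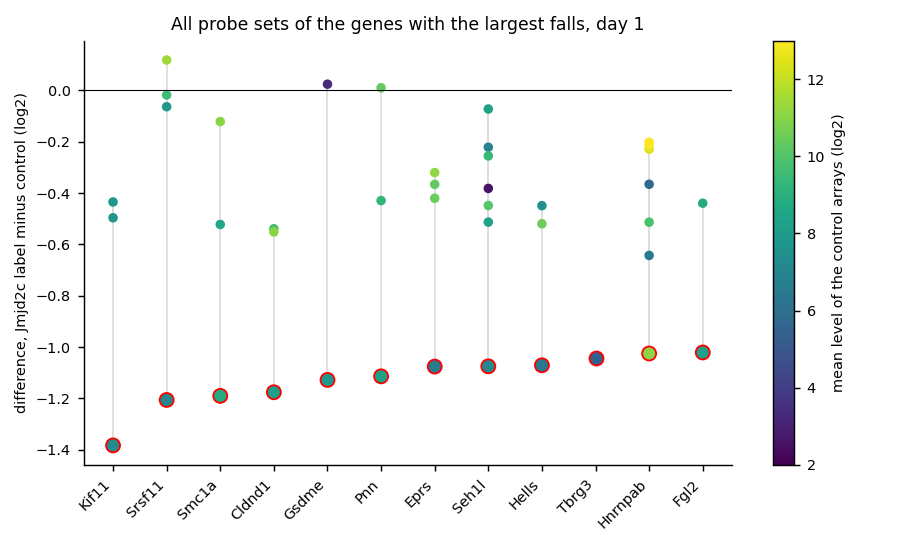
All probe sets of the 12 genes with the largest falls. The vertical axis is the log2 difference, Jmjd2c label minus control, at day 1, the colour is the mean log2 level of the control arrays, and a red ring marks the set that put the gene among the largest falls. The ringed set of Kif11 lies at -1.38 and its brightest set at -0.50, while Srsf11 and Pnn have a set at or above 0.

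Genes of the B cell receptor complex and its co-receptors rose together. Of 21 measured, 16 were past the test and higher and 0 lower, with a median difference of 0.50. Cr2 (CD21), the complement receptor that lowers the threshold of the receptor, read 7.35 and 7.34 on the control arrays and 11.01 and 11.77 on the Jmjd2c arrays. The Jmjd2c arrays were far above the controls, by 4.04 ± 0.19 (adjusted p = 1.86e-07). Cd79b, a signalling chain of the receptor, was high in controls and higher still with Jmjd2c depletion, going from 11.16 and 11.15 to 12.91 and 12.96, a rise of 1.78 ± 0.10. Ms4a1 (CD20) rose by 1.90 ± 0.10 and Fcrla, an intracellular immunoglobulin-binding protein, by 1.88 ± 0.16. The inhibitory lectins Siglecg and Cd22 rose by 2.25 ± 0.16 and 0.79 ± 0.08. Not past the test were Fcgr2b, the inhibitory Fc receptor (-0.07 ± 0.03), and the phosphatase Ptpn6 (0.12 ± 0.04).

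All 9 measured genes of MHC class II presentation were past the test and higher, with a median of 1.36. H2-Oa and H2-Ob, the chains of the H2-O protein that restrains peptide loading in B cells, rose most. H2-Oa read 7.86 and 7.99 on the control arrays and 10.32 and 11.16 on the Jmjd2c arrays. Its rise was 2.82 ± 0.19 and that of H2-Ob 2.60 ± 0.13. H2-DMa and H2-DMb2, the peptide-loading chains that H2-O opposes, rose by 1.64 ± 0.13 and 1.51 ± 0.11. The surface chains were already near the top of the scale in controls: H2-Aa went from 13.40 and 13.41 to 13.83 and 13.82, a rise of 0.42 ± 0.03, and H2-Eb1 rose by 0.73 ± 0.06.

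Receptors that guide B cells through tissues rose as well, 15 of 21 with 1 lower and a median of 0.63. S1pr1, the sphingosine receptor for exit into the blood, read 5.72 and 6.07 on the control arrays and 8.54 and 9.54 on the Jmjd2c arrays, apart between the groups and higher by 3.15 ± 0.26. Cnr2, the cannabinoid receptor that holds marginal zone B cells in place, went from 5.61 and 5.28 to 8.76 and 8.97, a rise of 3.42 ± 0.20. Itga4, the VLA-4 chain that binds VCAM1, rose by 2.96 ± 0.14. The chemokine receptors of the follicle, the T zone and the marrow rose too, Cxcr5 by 1.12 ± 0.09, Ccr7 by 1.89 ± 0.17 and Cxcr4 by 1.80 ± 0.17. The 1 that fell was Itgb1, the beta chain that pairs with Itga4, at -0.35 ± 0.08. Cd44, which binds hyaluronan, was not past the test (-0.05 ± 0.09). With 1 array left out, the call ended for Itgb1 (-0.37 to -0.33) without any 1 of the 4 arrays.

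Of 17 genes of the CD40, BAFF and lymphotoxin pathway 7 rose and 1 fell. The lymphotoxin genes rose most, Ltb as given above and Lta by 1.83 ± 0.18, followed by the adaptor Traf5 by 1.34 ± 0.16. Among the receptors, Tnfrsf17 (BCMA) rose by 0.66 ± 0.16 and Tnfrsf13c (the BAFF receptor) by 0.28 ± 0.07, while Cd40 itself, whose antibody was the stimulus, differed by 0.21 ± 0.06 (adjusted p = 0.0545) and Tnfrsf13b (TACI) by 0.20 ± 0.07 (adjusted p = 0.0827). Tnfsf4, the OX40 ligand of activated B cells, fell by 0.40 ± 0.06. In the NF-kB list 3 of 16 rose and 2 fell, with a median of 0.09, beside 7.57% higher and 7.35% lower over all genes. The kinase subunit Ikbkb (0.53 ± 0.09), the ligase Birc3 (0.69 ± 0.06) and the nuclear inhibitor Nfkbid (0.83 ± 0.18) were higher. The subunit Rel (-0.31 ± 0.09) and Bcl3 (-0.32 ± 0.07) were lower. Nfkbia, the feedback inhibitor, stood at -0.04 ± 0.03.

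Toll-like receptors and their partners were higher in 7 of 19 and lower in 1. Tlr1 rose by 1.57 ± 0.10, its partner Tlr2 by 0.61 ± 0.10, the trafficking chaperone Unc93b1 by 1.26 ± 0.14 and the LPS co-receptors Cd14 and Ly96 by 1.91 ± 0.34 and 1.17 ± 0.27. Myd88, the adaptor most of them share, fell by 0.39 ± 0.06. Calls ended for Tnfrsf17 (0.61 to 0.71), Rel (-0.38 to -0.25) and Bcl3 (-0.35 to -0.28) without any 1 of the 4 arrays, for Tnfrsf13c (0.21 to 0.30) without control 1, control 2 or Jmjd2c 1 and for Nfkbid (0.64 to 0.85) and Ly96 (0.69 to 1.21) without control 1, control 2 or Jmjd2c 2. The count of CD40 and lymphotoxin genes higher became 3 without control 1, control 2 or Jmjd2c 1 and 4 without Jmjd2c 2, and that of NF-kB genes lower became 4 without day 3 control 2 and 0 without any 1 of the 4 arrays. That of Toll-like receptor genes higher became 11 without day 3 control 2 and 4 without control 1 or Jmjd2c 2.

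Immediate early genes, which switch on within minutes of a signal, moved both ways. Among 13 AP-1 and related factors 4 rose and 2 fell. Beside Fos, Fosb rose by 3.10 ± 0.22, and Jun read 9.28 and 9.26 on the control arrays and 10.29 and 11.05 on the Jmjd2c arrays, higher by 1.40 ± 0.17. Atf3 rose by 0.61 ± 0.13, whereas Batf, an AP-1 factor of activated lymphocytes, changed by -0.35 ± 0.06 and Fosl2 by -0.52 ± 0.14, both lower. Junb differed by -0.06 ± 0.09 (adjusted p = 0.792) and Jund by 0.39 ± 0.15 (adjusted p = 0.127), neither past the test.

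Of 22 other immediate early genes 11 rose and 4 fell. Dusp1, a phosphatase of MAP kinases, read 8.12 and 8.08 on the control arrays and 10.23 and 10.92 on the Jmjd2c arrays, a rise of 2.47 ± 0.17, and Dusp6, the phosphatase of ERK, rose by 2.20 ± 0.17. Zfp36, which destabilises AU-rich transcripts, rose by 1.67 ± 0.16, Ppp1r15a, of the stress-response phosphatase, by 1.81 ± 0.18, Sgk1 by 2.05 ± 0.17 and Ier5 by 1.34 ± 0.10. Among those that fell, Egr2, a zinc-finger factor, went from 11.97 and 11.91 to 11.47 and 11.59, a fall of 0.41 ± 0.08, and the orphan receptors Nr4a2 and Nr4a3 changed by -0.66 ± 0.15 and -0.59 ± 0.13. Egr1 differed by 0.09 ± 0.17 (adjusted p = 0.868). Leaving out 1 array ended the call for Fosl2 (-0.55 to -0.50) and Nr4a3 (-0.62 to -0.55) without any 1 of the 4 arrays, for Atf3 (0.56 to 0.67) and Nr4a2 (-0.68 to -0.60) without control 1, control 2 or Jmjd2c 1, for Batf (-0.32 to -0.28) without control 2 or Jmjd2c 2 and for Egr2 (-0.39 to -0.35) without control 1 or Jmjd2c 1. The count of other immediate early genes higher became 7 without control 2, and that of other immediate early genes lower became 0 without control 1 or Jmjd2c 1 and 1 without control 2.

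Genes of quiescence and growth arrest rose in 15 of 23 and fell in 1, with a median of 0.78. Klf2, which keeps lymphocytes resting and recirculating, read 6.99 and 7.05 on the control arrays and 11.09 and 10.94 on the Jmjd2c arrays. The arrays of each group were close to each other and the rise was 4.00 ± 0.27 (adjusted p = 3.36e-06). Tsc22d3 (GILZ), a target of glucocorticoids and FOXO factors, rose by 4.06 ± 0.20, and Klf4, a brake on proliferation, by 3.38 ± 0.23. Pik3ip1, an inhibitor of PI3 kinase, rose by 2.28 ± 0.19, Txnip, the thioredoxin inhibitor that limits glucose uptake, by 2.11 ± 0.15, and Btg1, an anti-proliferative gene, by 0.78 ± 0.05. The 1 that fell was Slfn2, a Schlafen gene, at -0.20 ± 0.06. Of 8 Gimap GTPases, which support lymphocyte survival, 3 rose, Gimap7 by 1.09 ± 0.12, Gimap6 by 0.71 ± 0.06 and Gimap1 by 0.29 ± 0.07. The call ended for Slfn2 (-0.23 to -0.10) and Gimap1 (0.25 to 0.31) without control 1, control 2 or Jmjd2c 2. The difference moved by more than 1.5 times for Slfn2 (-0.30) without Jmjd2c 1. The count of quiescence genes lower became 3 without day 3 control 2 and 0 without control 1 or control 2, and that of Gimap genes higher became 5 without day 3 control 2.

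**Figure D3:**
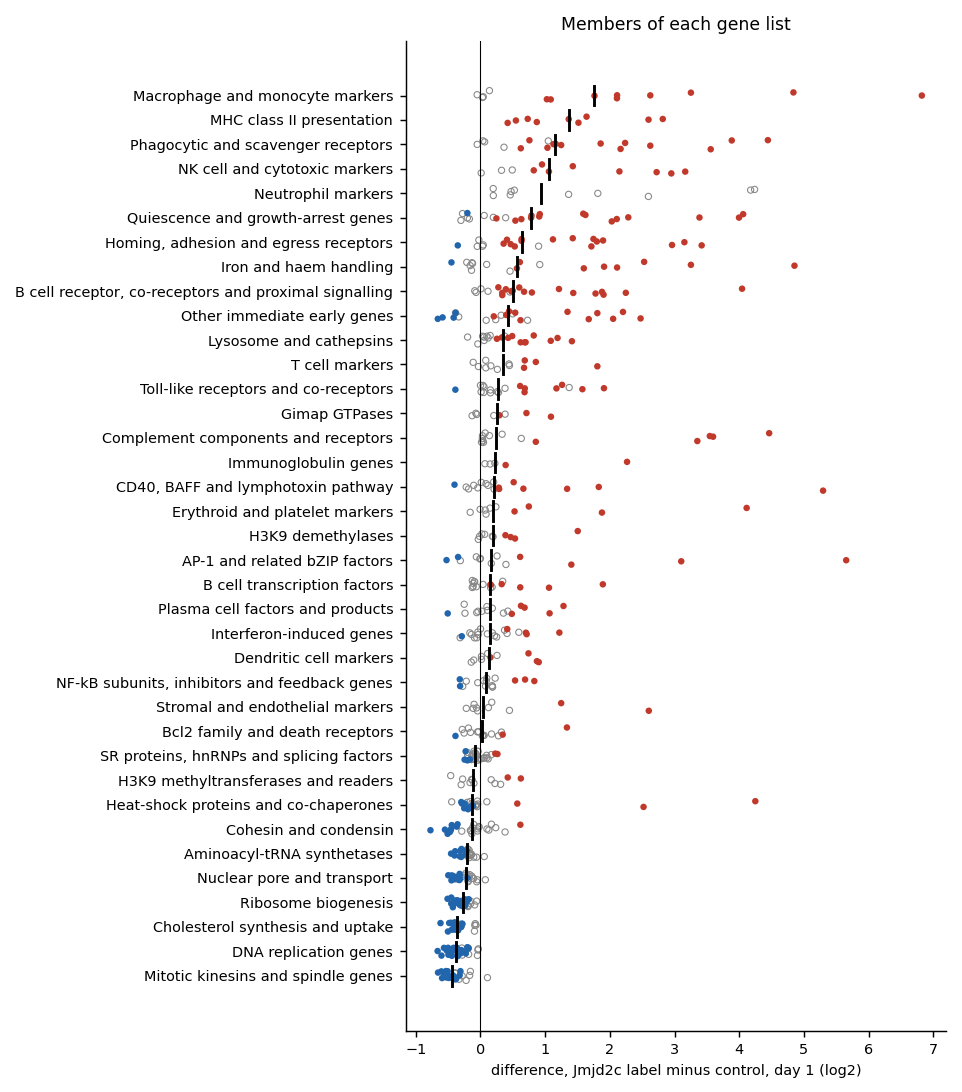
Every measured member of the 37 lists as a point. The horizontal axis is the log2 difference, Jmjd2c label minus control, at day 1, filled red or blue points are past the test, open points are not, and the black bar is the list's median. The list medians run from -0.44 for mitotic kinesins and spindle genes to 1.76 for macrophage and monocyte markers.

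Lineage factors of B cells changed in 6 of 17, all higher. Ets1, which restrains plasma cell differentiation, read 9.62 and 9.61 on the control arrays and 11.44 and 11.58 on the Jmjd2c arrays, a rise of 1.89 ± 0.08. Spib, a relative of PU.1, rose by 1.06 ± 0.19 and Tcf3 (E2A) by 0.61 ± 0.10. Bach2, a repressor of the plasma cell programme, differed by -0.13 ± 0.05 (adjusted p = 0.145). Of 16 plasma cell genes 5 rose and 1 fell. Jchain, the joining chain of secreted IgM and IgA, went from 11.14 and 11.22 to 11.95 and 12.55, a rise of 1.07 ± 0.15, Mzb1, a chaperone of antibody assembly, rose by 0.68 ± 0.07, Cd93 by 1.28 ± 0.25 and Irf4 by 0.48 ± 0.10. Sdc1 (CD138), the surface mark of plasma cells, read 10.54 and 10.63 on the control arrays and 10.01 and 10.14 on the Jmjd2c arrays. It was lower on both Jmjd2c arrays, at -0.51, and Xbp1, which builds the secretory apparatus, differed by 0.11 ± 0.05 (adjusted p = 0.296).

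Among 5 immunoglobulin genes 2 rose. Ighm, the constant region of IgM, went from 13.88 and 13.93 to 14.29 and 14.30, a rise of 0.39 ± 0.04. Igha, of IgA, read 10.07 and 10.28 on the control arrays and 11.38 and 13.51 on the Jmjd2c arrays, and the Jmjd2c arrays were far apart. Of 15 Bcl2 family and death receptor genes 2 rose, the killer protein Bmf (1.34 ± 0.35) and the survival protein Mcl1 (0.34 ± 0.06), and 1 fell, the killer Bcl2l11 or Bim (-0.39 ± 0.11). Interferon-induced genes rose in 4 of 20, with Rsad2 at 1.22 ± 0.13 and Irf1 at 0.70 ± 0.09, and fell in 1, Zbp1 (-0.29 ± 0.07). Over all genes 7.57% were called higher and 7.35% lower, so the Bcl2 counts and the interferon count of falls lie near that share. The median difference was 0.03 for the Bcl2 list and 0.15 for the interferon list. With 1 array left out, the call ended for Bcl2l11 (-0.46 to -0.31) and Zbp1 (-0.30 to -0.28) without any 1 of the 4 arrays, for Irf4 (0.39 to 0.51) and Igha (1.20 to 2.37) without control 1, control 2 or Jmjd2c 2, for Bmf (0.77 to 1.43) without control 1, control 2 or Jmjd2c 1, for Cd93 (1.06 to 1.21) without control 1 or Jmjd2c 1 and for Sdc1 (-0.46) without control 2. The count of B cell transcription factors higher became 3 without control 1, control 2 or Jmjd2c 2, and that of plasma cell genes higher became 3 without control 1, control 2 or Jmjd2c 2. That of interferon-induced genes higher became 7 without day 3 control 2 and 2 without control 1, control 2 or Jmjd2c 2, and that of interferon-induced genes lower became 2 without day 3 control 2 and 0 without any 1 of the 4 arrays.

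Markers of other blood cells were higher in part, and in bulk RNA more cells of a type and more RNA per cell cannot be told apart. Macrophage and monocyte markers rose in 9 of 13, with a mean level over the list of 5.31 and 5.40 on the control arrays and 6.97 and 7.71 on the Jmjd2c arrays. Adgre1, an adhesion receptor of macrophages, rose by 2.11 ± 0.24, Cd163, the haemoglobin scavenger, by 3.25 ± 0.42, and Spic, the factor of red pulp macrophages, by 2.11 ± 0.28, but the Fc receptor Fcgr1 stood at -0.05 ± 0.19, not past the test. NK and cytotoxic markers rose in 8 of 11. Their mean level was 5.21 and 5.35 on the control arrays and 6.77 and 6.71 on the Jmjd2c arrays, and Gzma, a granzyme, read 5.83 and 6.36 on the control arrays and 9.37 and 9.15 on the Jmjd2c arrays, while Gzmb was not past the test at 0.33 ± 0.16.

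Neutrophil markers had a median difference of 0.94 with 0 of 10 past the test, and the 2 Jmjd2c arrays lay apart: the mean level was 4.56 and 4.58 on the control arrays and 5.15 and 7.20 on the Jmjd2c arrays. S100a8, a chain of calprotectin, read 4.63 and 4.61 on the control arrays and 6.34 and 11.24 on the Jmjd2c arrays. Jmjd2c 2 was the highest of the 4 arrays and Jmjd2c 1 lay between it and the controls, giving 4.17 ± 1.28 (adjusted p = 0.0587). T cell markers rose in 4 of 12, from a mean level of 5.63 and 5.66 on the control arrays and 6.12 and 6.06 on the Jmjd2c arrays, with Cd2 at 1.81 ± 0.15, Cd3g at 0.86 ± 0.17 and Cd3e not past the test at 0.08 ± 0.14. Erythroid and platelet markers rose in 4 of 10, Alas2, of haem synthesis, by 1.88 ± 0.22, and their mean level was 4.70 and 4.69 on the control arrays and 5.37 and 5.54 on the Jmjd2c arrays. Dendritic cell markers rose in 4 of 10, Siglech by 0.90 ± 0.13, with a mean level of 6.58 and 6.56 on the control arrays and 6.80 and 6.91 on the Jmjd2c arrays. The mean level of stromal and endothelial markers was 4.62 and 4.72 on the control arrays and 5.08 and 5.08 on the Jmjd2c arrays. There 2 of 10 rose, Pecam1 (CD31) by 2.60 ± 0.20, while the collagen Col1a1 stood at -0.10 ± 0.21, not past the test. Of these 10 genes, 5 had a difference above 0 and 5 below, with a median of 0.04. The median difference was 0.35 for T cell, 0.19 for erythroid and platelet and 0.13 for dendritic cell markers, so a list mean can rise through a few members. Calls ended for Cd3g (0.83 to 0.88) without control 1 or control 2. The count of neutrophil markers higher became 2 without day 3 control 2 and 7 without Jmjd2c 1, and that of T cell markers higher became 1 without control 1 or control 2 and 2 without Jmjd2c 1. That of erythroid and platelet markers higher became 2 without control 1 or control 2, and that of dendritic cell markers higher became 2 without control 1, control 2 or Jmjd2c 2.

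Gene groups that these cell types share rose beside their markers, and the part of the marker cells in each was not tested. Phagocytic and scavenger receptors rose in 13 of 18, with a median of 1.15. Cd36, a scavenger receptor that marginal zone B cells also carry, read 5.80 and 5.98 on the control arrays and 10.07 and 9.47 on the Jmjd2c arrays, a rise of 3.88 ± 0.31. The receptors for dying cells Mertk and Axl rose by 2.62 ± 0.30 and 2.23 ± 0.28, and Treml4 by 3.56 ± 0.23. Complement genes rose in 5 of 14, C1qc by 3.59 ± 0.27 and Cd55, the decay-accelerating factor present on most blood cells, by 3.54 ± 0.16, from 5.91 and 5.93 to 9.43 and 9.49.

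Iron and haem genes rose in 8 of 17 and fell in 1. Hmox1, haem oxygenase, rose by 1.91 ± 0.45, Hfe, the haemochromatosis protein, by 2.53 ± 0.23, and Fth1, ferritin heavy chain, by 0.56 ± 0.05, while Aco1, which becomes an iron-responsive RNA-binding protein, fell by 0.45 ± 0.11 and Tfrc, the transferrin receptor, differed by -0.14 ± 0.09 (adjusted p = 0.43). Lysosomal genes rose in 11 of 20, the saposin precursor Psap by 1.41 ± 0.10, the cathepsins Ctsl and Ctsd by 1.19 ± 0.15 and 0.82 ± 0.11, and Lgmn, an endopeptidase of antigen processing, by 0.70 ± 0.10. Leaving out 1 array ended the call for Hmox1 (1.14 to 1.96) without control 1, control 2 or Jmjd2c 2 and for Aco1 (-0.48 to -0.32) without control 1, control 2 or Jmjd2c 1. The count of iron and haem genes lower became 2 without day 3 control 2 and 0 without control 1, control 2 or Jmjd2c 1, and that of lysosomal genes higher became 7 without control 2.

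**Figure D4:**
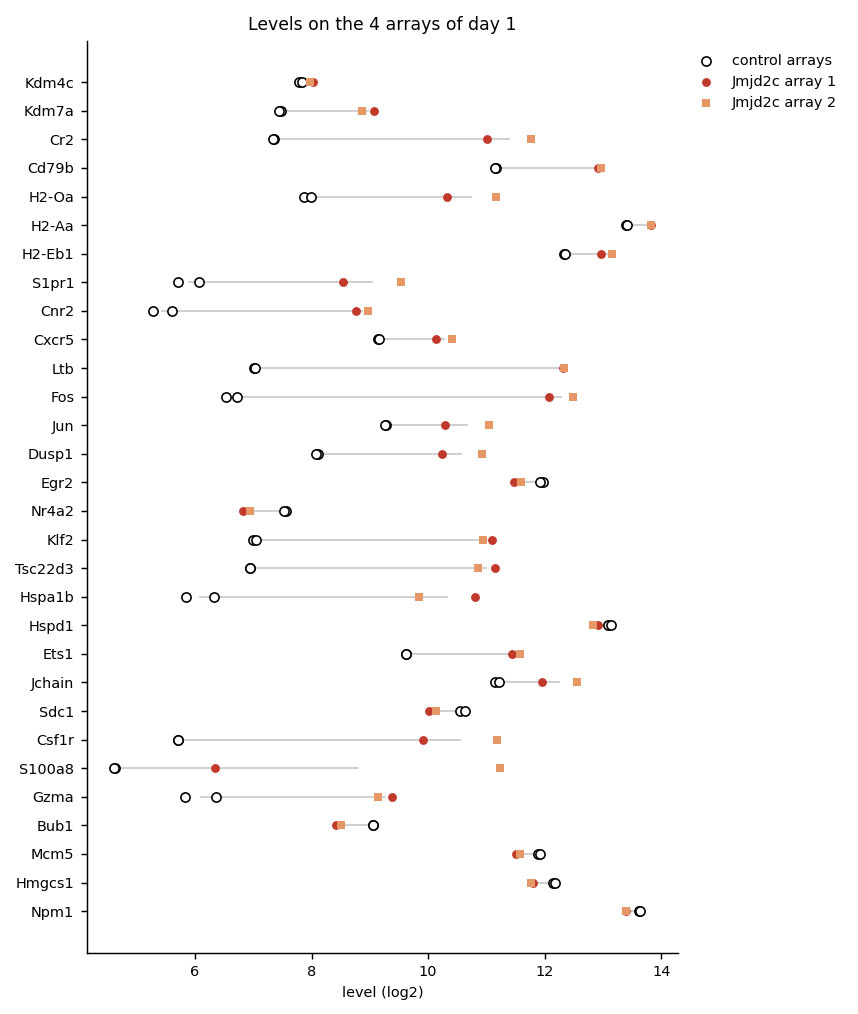
Levels of 30 genes on the 4 arrays of day 1. The horizontal axis is the log2 level, open circles are the control arrays, red circles Jmjd2c array 1 and orange squares Jmjd2c array 2, with a grey line between the group means. The Jmjd2c arrays of S100a8 stand at 6.34 and 11.24, far apart, while those of Ltb and Klf2 lie close together.

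Of 22 heat-shock proteins and co-chaperones, 3 rose and 8 fell. On its brightest set the stress-inducible Hsp70 gene Hspa1b read 5.84 and 6.32 on the control arrays and 10.80 and 9.85 on the Jmjd2c arrays, a rise of 4.25 ± 0.51, though how signal divides between it and Hspa1a (2.52 ± 0.42) is uncertain. Among those that fell, Hspd1, the mitochondrial Hsp60, went from 13.09 and 13.14 to 12.91 and 12.82, a change of -0.25 ± 0.04, Hspa4 of -0.29 ± 0.05, Hsp90aa1 of -0.19 ± 0.04 and Hspa8 of -0.12 ± 0.03. The call ended for Hspa8 (-0.12 to -0.11) without any 1 of the 4 arrays, for Hsp90aa1 (-0.19 to -0.16) without control 1, control 2 or Jmjd2c 1 and for Hspa4 (-0.28) without control 2. The count of heat-shock genes lower became 2 without control 1, 1 without control 2 and 3 without Jmjd2c 1 or Jmjd2c 2.

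Genes of dividing cells fell by modest amounts. Of 30 mitotic genes 21 were past the test and lower and 0 higher, with a median of -0.44. Bub1, a kinase of the spindle checkpoint, read 9.06 and 9.05 on the control arrays and 8.42 and 8.50 on the Jmjd2c arrays, each Jmjd2c array below both controls and the difference -0.59 ± 0.08 (adjusted p = 6.20e-04). Kif20a and Kif2c, spindle motors, were lower, at -0.66 ± 0.10 and -0.60 ± 0.10, Nuf2 of the kinetochore at -0.53 ± 0.09, Aurkb, a mitotic kinase, at -0.53 ± 0.09 and Cenpe, a kinetochore motor, at -0.53 ± 0.09. Of 25 cohesin and condensin genes 9 fell, among them Esco2, which acetylates cohesin in S phase (-0.77 ± 0.13), the condensin subunits Smc2 (-0.45 ± 0.08) and Ncapg (-0.55 ± 0.10), and Sgo1, which protects centromeric cohesion (-0.51 ± 0.09). The 1 that rose was Nipbl, the cohesin loader, by 0.62 ± 0.13, and Rad21, a core subunit, differed by -0.04 ± 0.08 (adjusted p = 0.861). With 1 array left out, the call ended for Nipbl (0.44 to 0.66) without control 1, control 2 or Jmjd2c 1 and for Ncapg (-0.52) without control 2. The count of mitotic genes lower became 8 without control 1, 7 without control 2 and 12 without Jmjd2c 2, and that of cohesin and condensin genes higher became 3 without day 3 control 2 and 0 without control 1, control 2 or Jmjd2c 1.

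DNA replication genes fell in 27 of 36 and rose in 0, with a median of -0.38. Mcm5, of the replicative helicase, read 11.89 and 11.91 on the control arrays and 11.51 and 11.57 on the Jmjd2c arrays. The controls differed by little and the difference was -0.36 ± 0.04 (adjusted p = 2.90e-04). Mcm6, of the same helicase, changed by -0.32 ± 0.04, Orc6, of the origin recognition complex, by -0.47 ± 0.07, the ribonucleotide reductase subunit Rrm2 by -0.41 ± 0.05 and Dut, which keeps uracil out of DNA, by -0.41 ± 0.05. The count of replication genes lower became 14 without control 1 and 12 without control 2.

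Biosynthetic genes fell by similar amounts. Ribosome biogenesis genes were lower in 19 of 26, with a median of -0.27: Npm1, the nucleolar chaperone, went from 13.62 and 13.64 to 13.39 and 13.40, a change of -0.24 ± 0.04, Polr1c, a subunit of RNA polymerase I, of -0.36 ± 0.05, and Rrs1, an assembly factor, of -0.51 ± 0.08. Aminoacyl-tRNA synthetases fell in 10 of 22, with Tars at -0.39 ± 0.06, Hars at -0.40 ± 0.07 and Iars at -0.31 ± 0.05. Nuclear pore and transport genes fell in 12 of 28, with Nup37 at -0.44 ± 0.06, Kpna2, an importin, at -0.32 ± 0.05 and Ran, the transport GTPase, at -0.20 ± 0.03. Splicing factors changed little, 4 of 30 lower and 2 higher, with Srsf1 at -0.23 ± 0.05 and Srsf5 at 0.23 ± 0.03. Leaving out 1 array ended the call for Srsf1 (-0.24 to -0.22) without any 1 of the 4 arrays and for Hars (-0.37) without control 2. The count of ribosome biogenesis genes lower became 10 without control 1, 8 without control 2, 12 without Jmjd2c 1 and 11 without Jmjd2c 2, and that of tRNA synthetases lower became 4 without control 1, 3 without control 2 and 6 without Jmjd2c 2. That of nuclear pore genes lower became 20 without day 3 control 2, 4 without control 1 and 5 without control 2, and that of splicing factors higher became 1 without control 1, control 2 or Jmjd2c 1. That of splicing factors lower became 0 without control 1, control 2 or Jmjd2c 2.

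Cholesterol synthesis and uptake genes fell in 14 of 20, with a median of -0.37. Hmgcs1, which makes HMG-CoA, read 12.14 and 12.18 on the control arrays and 11.79 and 11.77 on the Jmjd2c arrays, and the groups did not overlap, at -0.39 ± 0.04 (adjusted p = 8.82e-05). Further along the pathway Idi1 changed by -0.34 ± 0.05, Fdft1 (squalene synthase) by -0.48 ± 0.06, Cyp51 by -0.50 ± 0.07 and Hsd17b7 by -0.62 ± 0.08. Insig1, a brake on the pathway, changed by -0.44 ± 0.06, while the regulator Srebf2 differed by -0.08 ± 0.10 (adjusted p = 0.773). The count of cholesterol genes lower became 8 without control 1 or Jmjd2c 2 and 7 without control 2.

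The promoters of 4 of these genes are shown, 1 from each of 4 lists, because each holds a well-known promoter element. Each runs 5′ to 3′ on the gene's strand from 250 bases before the annotated start to 50 after it, from RefSeq on GRCm38.p6, with the named elements of each in capitals; CCAAT on the opposite strand reads ATTGG and TTTGAA reads TTCAAA. Hspa1b lies at chr17:34959189-34959488 on the minus strand, with the heat-shock element pair GAANNTTC. Kif11 lies at chr19:37376132-37376431 on the plus strand, with CCAAT and, nearer the start, the cell-cycle homology region TTTGAA, both read on the opposite strand. Mcm6 lies at chr1:128359656-128359955 on the minus strand, with the E2F site TTTGGCGC and CCAAT. Hmgcs1 lies at chr13:119690101-119690400 on the plus strand, with the sterol response element TCACNCCAC and CCAAT.
Hspa1b: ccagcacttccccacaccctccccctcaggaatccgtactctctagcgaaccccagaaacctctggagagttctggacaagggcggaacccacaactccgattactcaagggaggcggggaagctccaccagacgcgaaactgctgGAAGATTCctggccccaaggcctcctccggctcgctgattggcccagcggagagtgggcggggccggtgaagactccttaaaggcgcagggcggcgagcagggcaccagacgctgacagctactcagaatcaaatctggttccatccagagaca
Kif11: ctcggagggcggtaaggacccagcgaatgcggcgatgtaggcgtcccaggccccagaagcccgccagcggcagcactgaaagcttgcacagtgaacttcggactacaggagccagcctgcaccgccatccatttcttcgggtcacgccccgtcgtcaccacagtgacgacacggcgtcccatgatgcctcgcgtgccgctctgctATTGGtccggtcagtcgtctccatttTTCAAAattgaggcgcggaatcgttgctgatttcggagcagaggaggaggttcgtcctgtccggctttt
Mcm6: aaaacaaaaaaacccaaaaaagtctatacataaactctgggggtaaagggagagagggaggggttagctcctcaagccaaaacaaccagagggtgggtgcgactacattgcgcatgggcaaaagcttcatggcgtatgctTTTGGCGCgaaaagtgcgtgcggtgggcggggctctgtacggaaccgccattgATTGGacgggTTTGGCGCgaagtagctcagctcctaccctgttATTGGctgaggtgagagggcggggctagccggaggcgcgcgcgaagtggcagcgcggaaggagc
Hmgcs1: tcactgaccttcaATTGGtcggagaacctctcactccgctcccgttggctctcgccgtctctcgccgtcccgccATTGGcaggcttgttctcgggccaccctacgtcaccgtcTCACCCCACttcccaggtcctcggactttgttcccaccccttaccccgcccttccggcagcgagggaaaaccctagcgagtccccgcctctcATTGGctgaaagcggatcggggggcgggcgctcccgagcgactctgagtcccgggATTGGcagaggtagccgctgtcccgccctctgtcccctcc

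Windows were given for 14452 genes, and each motif was searched on both strands. In Kif11 the CCAAT begins 45 bases and the TTTGAA 19 bases before the start. TTTGAA was in the window of 22 of 27 mitotic genes (81.5%) and of 15.7% of all genes, and CCAAT in 20 of the 27 (74.1%) against 42.0%. In Mcm6 the E2F site occurs 110 and 47 bases before the start. This form was found in 6 of 30 replication genes (20%) against 0.934% of all, and the form TTTCCCGC in 7 of 30 (23.3%) against 1.87%. The sterol response element was in 1 of 17 cholesterol genes with a window (5.88%) against 1.46% of all, and CCAAT in all 17. That 1 gene was Hmgcs1, which was printed because it holds the element. The heat-shock pair, 104 bases before the Hspa1b start, was in 9 of 19 heat-shock genes (47.4%) against 7.6%, although the list holds genes that rose and genes that fell. The ETS-type motif CCGGAAG was in 25% of the windows of genes that fell, 8.51% of those of genes that rose at least 2-fold, and 15% of all. A match describes letters in a window, and binding was not measured.

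Cells labelled Jmjd2a depleted were compared with those labelled Jmjd2c depleted on the same day. By limma 0 probe sets were past the test (0%), with 1081 at an unadjusted p below 0.05, which is 2.40% of all, and 1 that differed by at least 2-fold between the means. The 95% interval of a difference, not adjusted for the number of sets, had a median half-width of 0.29. Passing the adjusted test takes larger differences, so 0 calls does not show the 2 labels to be equal. Pnn, on its set of largest fall, was lower with the Jmjd2c label by 0.43 (95% interval of the difference -0.72 to -0.15). It was not past the test. Against the control arrays that both share, Kdm4c differed by 0.24 with Jmjd2a depletion and 0.19 with Jmjd2c depletion. The same pair of values was 3.92 and 4.04 for Cr2, 3.71 and 4.00 for Klf2, 4.43 and 4.84 for Csf1r, -0.54 and -0.59 for Bub1, and -0.28 and -0.39 for Hmgcs1. As these share the controls they are no independent repeat of each other. Without Jmjd2a 1, the count past the test became 6.

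By day 3 most large rises were gone. Against their own day 3 controls, 6452 probe sets (14.3%) were past the test in Jmjd2c-depleted cells, and 7879 (17.5%) changed their difference between the days. Of the 420 genes at least 2-fold higher at day 1, 26 were higher and 111 lower at day 3 (12.1% and 7.21% over all genes), and 393 had a smaller difference at day 3 by the test between days (9.65% over all genes). Their median went from 1.54 to -0.32. These genes were chosen on the day 1 difference, which the test between days uses too. Without day 3 control 2 the counts were 20 higher, 139 lower and 398 smaller, with a day 3 median of -0.40. Vcam1 read 6.68 and 6.36 on the day 3 controls and 5.09 and 4.59 on the day 3 Jmjd2c arrays, so that controls were then the higher group. Its difference stood at -1.68 at day 3, that of C1qb at -1.83, Ltb at 0.45 and Fcer2a at 0.00, whereas Fos was still higher by 1.37 and Hspa1b by 2.75.

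The falls did not all follow. Ribosome biogenesis genes had a day 3 median of 0.65 with 25 of 26 higher, tRNA synthetases 0.41 with 17 of 22 higher, and replication genes 0.22 with 20 of 36 higher. Mitotic genes stayed low, with a median of -0.84 and 27 of 30 lower. Without day 3 control 2 the medians were 0.66 for ribosome biogenesis, 0.39 for tRNA synthetases, 0.21 for replication and -0.92 for mitotic genes. Day 3 control 2 stands apart from the other arrays, with an 18S level of 10.73 and an interquartile range of 3.08, and the count that changed between days was 12912 without day 3 control 1, the largest of the values with 1 array left out.

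**Figure D5:**
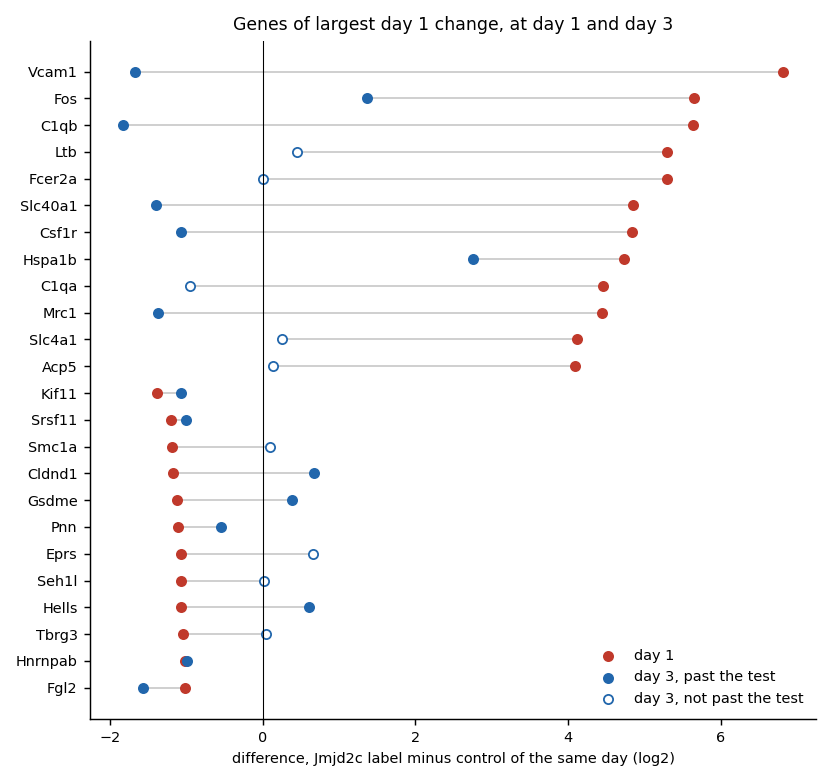
The 24 genes of largest day 1 change. The horizontal axis is the log2 difference, Jmjd2c label minus control of the same day, with red circles for day 1 and blue circles for day 3, filled where past the test. Vcam1 goes from 6.82 to -1.68 while Fos and Hspa1b stay above 0 at both days.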

How the data were processed

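The deposited values are log2 levels of the Affymetrix mouse expression array of the series, 1 column for each of 12 arrays. Per the labels, total RNA was extracted with TRIzol and biotinylated cRNA was made from 6 ug of it; the software, normalization and background correction behind the authors' log2 values are not given in the sources used here. Of 45101 probe sets, 64 AFFX controls were left out. By the platform annotation 34945 sets name 1 gene, 932 several and 9160 none, and a gene was represented by its set of highest mean over the 12 arrays. With limma 3.58.1 in R 4.3.3, the means of 6 groups were fitted over all 12 arrays with an intensity trend, which leaves 6 residual degrees of freedom, and p-values were adjusted by Benjamini-Hochberg over 45037 sets. The fit was tested on simulated data with independent normal noise and 200 changed sets. It recovered 73% of them at 1.5-fold and 100% at 2-fold, with 5 and 14 false calls. The simulation held no outlying array and no deviations shared between arrays, so it does not show how the fit behaves with these. Array number limits the precision.

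The genes named are Kdm4a to Kdm4d, the H3K9 demethylases, the 12 largest rises and falls that passed the test without overlap above the median level, and, from each list, up to 6 members past the test of smallest p, up to 3 in the opposite direction and up to 3 of highest mean that did not pass. The comparison, its members and the lists were chosen with earlier results of these data known. Alternatives were quantile normalization, median centring, dropping dim sets, no trend, array weights, fewer arrays, a replicate block and leaving out each array. The labels number the replicates without saying that a number marks a shared culture, and the numbers were not taken as pairs.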

Additional observations from a re-analysis of the deposited data

Results flagged for a closer look

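The difference between cells labelled Jmjd2c depleted and control differed between day 1 and day 3, by the limma test of that difference, for 18 of the 24 genes of largest day 1 change. The change is given as the day 3 difference minus the day 1 difference on the log2 scale, and the genes were picked for a large day 1 difference, which enters it.

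Among the rises it was -8.50 for Vcam1, -7.47 for C1qb, -6.26 for Slc40a1, -5.91 for Csf1r, -5.81 for Mrc1 and -5.41 for C1qa, all known from splenic macrophages. For the B cell genes Fcer2a and Ltb it was -5.29 and -4.85. It was -4.28 for Fos, -3.96 for Acp5 and -3.86 for Slc4a1. The day 3 controls themselves were above the day 1 controls for Vcam1, C1qb, Slc40a1, Csf1r, Mrc1 and C1qa. Vcam1 read 2.93 and 3.23 in the day 1 controls and 6.68 and 6.36 in those of day 3. For C1qb these values were 3.67 and 3.90 against 7.95 and 7.59. For Ltb, Fos, Acp5 and Slc4a1 the day 3 controls lay below those of day 1, and for Fcer2a the days overlapped.

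Among the falls, read on the probe set of largest change, it was 1.85 for Cldnd1, 1.73 for Eprs, 1.68 for Hells, 1.51 for Gsdme, 1.28 for Smc1a, 1.09 for Seh1l and 1.09 for Tbrg3.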

How the results depend on the processing

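The direction of each named gene that passed the test, and its absence of call for Kdm4c, held under all scalings, subsets and left-out arrays tried, and the calls lost with 1 of the 4 arrays left out stand beside the genes. Calls of named genes also ended with median centring for Ehmt2 (0.42) and Rel (-0.32), with quantile normalization for Slfn2 (-0.17), with only the 4 arrays for Slfn2 (-0.20), and with only the 6 arrays of day 1 for Slfn2 (-0.20), Tnfrsf13c (0.28), Igha (2.27), Bmf (1.34), Hmox1 (1.91) and Hspa8 (-0.12). Counts moved more. The 4961 probe sets past the test became 8386 with array weights, 8449 without day 3 control array 2, 3180 with 1 set per gene, 1948 at 1.5-fold or more and 1829 to 3296 with 1 array left out. The 2397 higher became 3596 with array weights, 1543 with 1 set per gene, 1569 at 1.5-fold or more and 1241 to 1920 with 1 array left out. The 2564 lower became 4790 with array weights, 4901 without day 3 control array 2, 1495 without the intensity trend, 1637 with 1 set per gene, 379 at 1.5-fold or more and 588 to 1376 with 1 array left out. Fewer arrays or sets were tested in the subsets; otherwise the cause was not tested. For Jmjd2c against Jmjd2a the count ran from 0 to 6 with 1 array left out, and for the change between days from 5362 to 12912, with 4561 at 1 set per gene.

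With the replicate number as a block, 5053 sets passed, 2482 higher and 2571 lower, and 7985 for the change between days. Same-numbered arrays of the 2 groups deviated with a correlation of 0.09, and the number is not known to mark a pair. Same-numbered Jmjd2a and Jmjd2c arrays of day 1 deviated with a correlation of 0.39, and correlated at 0.998 and 0.997 over all sets, against 0.996 between the arrays of each group. Between these groups 0 sets passed by limma with the block (1104 at an unadjusted p below 0.05), and 0 with the block in a fit of those 4 arrays alone (2869), an alternative chosen after seeing the data. With 1 array left out the sign turned for 10 named genes that were not past the test: Kdm4d (-0.092 to 0.133), Phf8 (-0.043 to 0.014), Pnn (-0.084 to 0.104), Cd44 (-0.167 to 0.068), Junb (-0.148 to 0.02), Egr1 (-0.209 to 0.386), Fcgr1 (-0.237 to 0.135), Cd3e (-0.023 to 0.188), Tfrc (-0.278 to 0.003) and Rad21 (-0.157 to 0.074). With 2 arrays a group, small differences in dim sets cannot be resolved.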
